A study of Mus musculus with 8 samples.

Results

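Cytosolic ribosomal protein genes were examined in mouse trophectoderm of embryonic day 4.5, from dams on a high fat diet or a control diet. Membership followed the gene symbol. The genes are those with a standard symbol for a protein of the cytosolic ribosome (Rpl, Rplp, Rps, Rpsa or Fau, and the copies Rps27l, Rpl22l1 and Rpl36al) on a probe set that the platform annotation pairs with exactly 1 gene. This gave 17 genes on 17 probe sets, of 14996 probe sets with 1 symbol and 16015 with at least 1. They were 9 genes of the large subunit and 8 of the small subunit. The other ribosomal protein genes were not analysed here as single genes, and 32 probe sets that carry a ribosomal protein symbol together with further symbols are described only as a set near the end.

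The first group was 4 pools from C57BL/6J dams that ate a high fat diet (Teklad 06414), and the second was 4 pools from C57BL/6J dams that ate a control diet (Lab Diet 5015). Both diets ran from weaning to mating with C57BL/6J males at 16 weeks of age. Each pool held trophectoderm cut from the abembryonic side of 5 blastocysts, and its RNA was amplified by 2 successive kits before hybridisation to 1 Affymetrix array. The labels call the pools biological replicates, and the sources used here do not say which dams supplied a pool. The p-values therefore describe differences among pools. In pooled tissue, fewer cells of a type and less RNA per cell cannot be told apart.

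The cytosolic ribosome translates nearly all messenger RNA of the cell. Its small subunit binds the message and reads the codons, and its large subunit joins the amino acids and holds the tunnel through which the new protein leaves. Ribosomal proteins are needed in near equal numbers, their transcripts are among the most abundant of growing cells, and most begin with a stretch of pyrimidines, the 5′ terminal oligopyrimidine (TOP) sequence, through which the kinase complex mTORC1 and the protein LARP1 control their translation. In the blastocyst, embryonic ribosomes are made in growing numbers from cleavage onwards.

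The start regions of 7 genes are shown because these genes carry the results below. For Rpl4, Rpl23, Rplp0 and Rpsa the signal differed by several log2 units between pools of the same diet, and Rps9, Rps3 and Rps27l were bright on every array. The sequences are from RefSeq, build GRCm38.p6, 5′ to 3′ on the strand of the gene, from 70 bases before to 30 bases from the listed start. Capitals mark CGGAAGT or its reverse complement, TATAAA on the gene's strand, or a run of at least 8 pyrimidines between 15 bases before and 25 bases after the start.
Rpl4, chr9:64173317-64173416, plus strand: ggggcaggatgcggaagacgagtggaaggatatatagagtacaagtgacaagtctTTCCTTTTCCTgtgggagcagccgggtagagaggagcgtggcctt
Rpl23, chr11:97782410-97782509, minus strand: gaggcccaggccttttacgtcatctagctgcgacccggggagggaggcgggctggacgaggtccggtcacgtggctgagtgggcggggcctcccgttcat
Rplp0, chr5:115559397-115559496, plus strand: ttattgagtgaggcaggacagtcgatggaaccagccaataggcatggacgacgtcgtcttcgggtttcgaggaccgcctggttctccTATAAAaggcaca
Rpsa, chr9:120127696-120127795, plus strand: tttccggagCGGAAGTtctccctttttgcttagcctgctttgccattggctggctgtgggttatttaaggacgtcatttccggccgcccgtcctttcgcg
Rps9, chr7:3703971-3704070, plus strand: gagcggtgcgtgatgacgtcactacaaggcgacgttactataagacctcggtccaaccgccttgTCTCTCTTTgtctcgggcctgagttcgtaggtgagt
Rps3, chr7:99483680-99483779, minus strand: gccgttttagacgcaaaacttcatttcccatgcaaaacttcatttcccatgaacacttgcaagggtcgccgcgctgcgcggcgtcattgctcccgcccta
Rps27l, chr9:66946016-66946115, plus strand: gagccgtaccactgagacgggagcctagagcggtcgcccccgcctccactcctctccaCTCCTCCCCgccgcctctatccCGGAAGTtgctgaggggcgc

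RefSeq windows from 250 bases before to 50 bases from the start were matched for 15 of the 17 genes by gene ID, taking the window listed first for each gene. CGGAAGT, the core that GABP and other ETS factors recognise, occurred on either strand in 7 of the 15 windows (46.7%), against 6.59% of 27025 genes. These were Rpl23, Rpl31, Rpl37, Rps3, Rps18, Rps27l and Rpsa. A run of at least 8 pyrimidines around the start occurred in 6 of 15 (40.0%), against 15.2% of all genes, and these were Rpl4, Rpl31, Rps9, Rps18, Rps24 and Rps27l. TATAAA occurred in 1 window, that of Rplp0, against 8.88% of all genes. AAGATGG, the core of the YY1 motif, occurred on either strand in 1 window, that of Rpl35a, against 6.48% of all genes. The listed start need not be the start used in trophectoderm, and 5 of the 15 genes had more than 1 window. Genes that swung between pools and genes that were steady both appear with and without the first of these motifs: Rpsa and Rpl23 hold it, Rpl4 and Rplp0 do not, and of the steady genes Rps3 holds it and Rps9 does not.

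Most probe sets read higher on the high fat diet arrays, with a median log2 change of +0.22 over the 16015 tested, and a difference in the array median of +0.19. Background was taken for each array as the 95th percentile over 842 probe sets of chemosensory receptors, families known from sensory cells. It ran from 6.15 to 6.65 over high fat diet arrays and from 5.88 to 6.13 over control diet arrays. The array of high fat diet replicate 3 had the highest background and resembled the others least, with a mean correlation of 0.832, while the other 7 arrays had 0.879 to 0.890. Without it, the change of 6 members was below 0 in place of 3, against 23.0% of all tested probe sets in that fit. In the same fit 2 members in place of 1 had high fat diet pools all above control diet pools, against 26.2%. Trophectoderm markers were present, with 13 of 16 measured above background on all 8 arrays, among them Cdx2, Gata3 and Krt18. Their mean log2 signal ran from 8.24 to 8.91 over high fat diet pools and from 8.70 to 9.28 over control diet pools. Markers of other cells in a dissected piece were also read. For the inner cell mass 6 of 12 lay above background on all 8 arrays, among them Pou5f1, Dppa3 and Fgf4, with Sox2, Esrrb and Dppa4 on none, and the mean of the list ran from 6.81 to 7.07 and from 6.18 to 7.54. For primitive endoderm it was 8 of 15, among them Dab2, Gata4 and Gata6, with Pdgfra, Sox7 and Ttr on none, and means of 6.65 to 7.01 and 6.54 to 6.75. For the uterus it was 7 of 14, among them Col1a1, Hand2 and Msx1, with 7 on none, among them Pgr and Ltf, and means of 6.07 to 6.51 and 5.76 to 5.96. For blood and immune cells it was 1 of 12, Cx3cr1, with 9 on none, Ptprc among them, and means of 5.08 to 5.503 and 4.77 to 4.93. Over the receptor probe sets the mean ran from 4.36 to 4.60 and from 4.20 to 4.29. Over all tested probe sets it ran from 5.97 to 6.07 and from 5.86 to 5.93. In each of these pairs the first range is of high fat diet pools and the second of control diet pools. The part of any of these other cell types in the results below was not tested.

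The 17 genes fell into 3 sets by their position against background. Rps9, Rps3, Rps20, Rps27l, Rpl8 and Rpl35a lay above background on all 8 arrays, 6 of 17 against 24.2% of all tested probe sets. Rpl31 and Rpl37 lay above it on no array, against 49.6% of tested probe sets. The other 9 (Rpl4, Rpl10a, Rpl22, Rpl23, Rplp0, Rps15, Rps18, Rps24 and Rpsa) lay above it on some arrays and not on others, against 26.3%. By array, between 10 and 12 of the 17 were above background in high fat diet pools and between 10 and 15 in control diet pools. Brightness on an array depends on the probes, so the order of the probe sets is no order of transcript amounts.

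**Figure D1:**
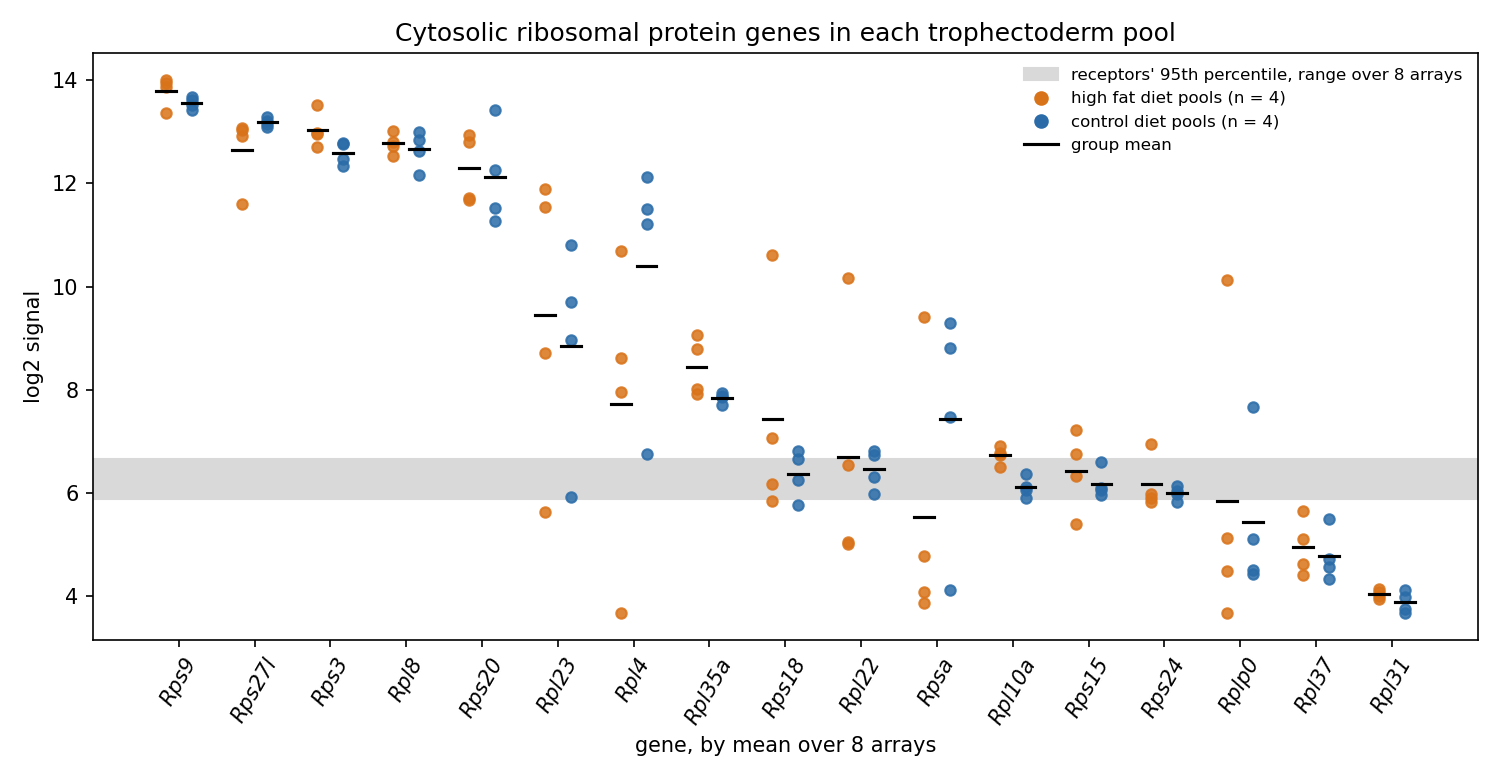
Log2 signal (vertical axis) of the 17 genes in each of 4 high fat diet pools and 4 control diet pools, with the group mean as a bar and the receptors' 95th percentile over the 8 arrays, 5.88 to 6.65, as a grey band. The 5 genes on the left stay above 11 in every pool, while Rpl23, Rpl4, Rpsa, Rps18, Rpl22 and Rplp0 cross or approach the band in some pools of the same diet and lie far above it in others.

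Among the genes of the small subunit that were bright on every array, Rps9 was the steadiest. Rps9, a protein of the body of the small subunit, read at 13.95, 13.88, 13.37 and 14.01 in high fat diet pools 1 to 4, against 13.63, 13.68, 13.52 and 13.43 in control diet pools 1 to 4 (probe set 6972998). The groups overlapped through high fat diet replicate 3, the lowest value of all 8. The difference was +0.24 with an SE of 0.15 and a limma adjusted p of 0.29. Without high fat diet replicate 3 it was +0.38, beside a median of +0.16 over all tested probe sets in that fit.

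Rps3, which lies where the message enters the small subunit and also acts in DNA repair, read at 12.95, 12.71, 13.52 and 12.98 in high fat diet pools, against 12.76, 12.78, 12.33 and 12.48 in control diet pools (probe set 6969735). Here replicate 3 of the high fat diet was the highest of all, and the groups overlapped. The difference was +0.45 (SE 0.19, 95% interval +0.01 to +0.89, limma adjusted p = 0.15). It was +0.29 when high fat diet replicate 3 was left out.

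Rps20, a protein of the head of the small subunit, read at 12.95, 12.81, 11.67 and 11.73 in high fat diet pools, against 11.27, 11.53, 12.27 and 13.43 in control diet pools (probe set 6919296). Each diet held both high and low pools, and the control diet pools spanned 2.17 log2 units against 1.28 for the high fat diet pools. The difference of +0.17 had an SE of 0.53 (limma adjusted p = 0.83). It was +0.37 without high fat diet replicate 3, and its sign turned with each of 4 other arrays left out in turn (-0.12 to -0.0085).

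Rps27l is a near copy of Rps27 that is known as a target of p53 and was the 1 member whose high fat diet pools all lay below the control diet pools. It read at 13.04, 13.07, 11.60 and 12.93 in high fat diet pools, against 13.09, 13.28, 13.16 and 13.21 in control diet pools (probe set 6990067). The highest high fat diet value and the lowest control diet value were 13.07 and 13.09, so the gap was small, and high fat diet replicate 3 stood far below the rest. The difference was -0.53 (SE 0.32, limma adjusted p = 0.27). It was -0.17 when high fat diet replicate 3 was left out. Over all tested probe sets, 0.855% had groups apart in this direction.

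The bright genes of the large subunit were Rpl8 and Rpl35a. Rpl8, which lies near the site where peptide bonds form, read at 13.03, 12.54, 12.73 and 12.81 in high fat diet pools, against 12.17, 12.84, 12.64 and 12.99 in control diet pools (probe set 6831706). The groups overlapped, with control diet replicate 1 the lowest, and the difference of +0.11 had an SE of 0.19 (limma adjusted p = 0.67). Its sign turned with median centring (-0.045). Rpl35a, one of the genes mutated in human Diamond-Blackfan anaemia, read at 8.79, 8.02, 9.06 and 7.92 in high fat diet pools, against 7.88, 7.86, 7.93 and 7.69 in control diet pools (probe set 6840603). High fat diet replicates 1 and 3 were high, and replicate 4 lay within the control diet range of 0.23 log2 units. The difference was +0.61 (SE 0.26, limma adjusted p = 0.16), or +0.40 without high fat diet replicate 3, and the spread was 0.56 (SD, n = 4) with the high fat diet and 0.10 (SD, n = 4) with the control diet.

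Signals of 6 genes ran over more than 4 log2 units across the 8 arrays, a limit set after the values were seen. They were Rpl4, Rpl22, Rpl23, Rplp0, Rps18 and Rpsa, 6 of 17 (35.3%), against 4.93% of all tested probe sets. Among probe sets whose mean over the arrays lay above the mean background, it was 5 of 13 members against 10.6%. Within a diet, the pooled SD between pools was 2.72 for Rpl4, 2.54 for Rpl23, 2.48 for Rpsa, 2.33 for Rplp0, 1.74 for Rpl22 and 1.58 for Rps18. These values lay between the 96.6th percentile (Rps18) and the 99.8th percentile (Rpl4) of all tested probe sets. The median over the 17 genes was 0.53, against 0.21 over all tested probe sets. The same median SD was 0.80 for mitochondrial ribosomal protein genes, 0.66 for elongation and termination genes, 0.53 for the trophectoderm markers and 0.50 for the Eif genes, all of them lists described here, and the first 2 of these medians lay above that of the 17 genes. Of the 11 elongation and termination genes, 4 (36.4%) ranged over more than 4 log2 units.

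**Figure D2:**
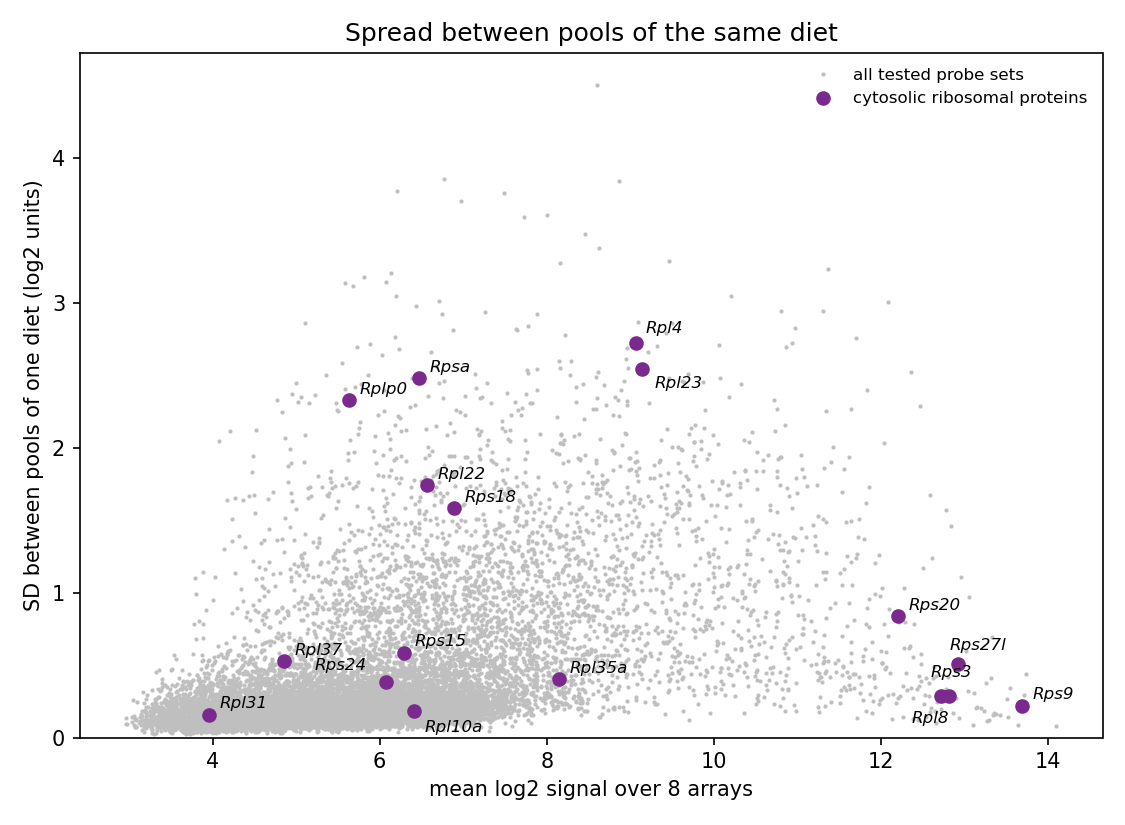
SD between pools of the same diet, in log2 units and pooled over both diets (vertical axis), against the mean log2 signal over 8 arrays (horizontal axis), for all 16015 tested probe sets (grey) and the 17 genes (purple). Rpl4, Rpl23, Rpsa and Rplp0 lie between 2.33 and 2.72, while Rps9, Rps3 and Rpl8 lie between 0.22 and 0.29.

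Rpl4, whose protein reaches into the wall of the exit tunnel, read at 7.95, 8.60, 3.66 and 10.70 in high fat diet pools, against 6.74, 12.13, 11.51 and 11.21 in control diet pools (probe set 6989868). In Rpl4, high fat diet replicate 3 was below background and control diet replicate 1 was within 1 log2 unit of it, while 3 control diet pools were above 11. The difference was -2.67 with an SE of 1.71 (95% interval -6.65 to +1.31, limma adjusted p = 0.29). It was -1.31 without high fat diet replicate 3 and -3.89 without control diet replicate 1. With high fat diet replicate 3 raised to background, the means of these 8 arrays differed by at least 1.92 log2 units, or 1.74 against the receptors' 99th percentile. This is no bound on the difference between the diets.

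Rpl23, which lies on the face of the large subunit that meets the small one and can bind MDM2, read at 8.71, 11.55, 5.62 and 11.89 in high fat diet pools, against 10.80, 9.71, 8.96 and 5.92 in control diet pools (probe set 6791222). Each diet had 1 pool below background, high fat diet replicate 3 and control diet replicate 4, and 3 pools well above it. The difference of +0.60 had an SE of 1.60 (limma adjusted p = 0.80). It was +1.87 without high fat diet replicate 3 and -0.38 without control diet replicate 4, the 2 pools below background.

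Rplp0, the base of the stalk that receives translation factors, read at 3.67, 4.48, 10.13 and 5.11 in high fat diet pools, against 7.66, 5.10, 4.49 and 4.43 in control diet pools (probe set 6933677). It lay above background on 1 array of each diet, high fat diet replicate 3 and control diet replicate 1, and below it on the other 6. The difference of +0.42 (SE 1.46, limma adjusted p = 0.84) was -1.002 without high fat diet replicate 3, which was low for Rpl4, Rpl23 and Rpsa.

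Rpsa, a small subunit protein also described as a laminin receptor precursor, read at 4.07, 9.40, 3.85 and 4.76 in high fat diet pools, against 9.29, 8.81, 4.12 and 7.47 in control diet pools (probe set 6992920). It lay above background on 1 of 4 high fat diet arrays and 3 of 4 control diet arrays, so both diets held high and low pools. The difference of -1.90 had an SE of 1.56 (limma adjusted p = 0.39) and was -3.19 without high fat diet replicate 2. With the low high fat diet pools raised to background and the control diet values left as read, the control diet mean was higher by 0.26 log2 units. Against the 99th percentile of the receptors this value was -0.31. Control diet replicate 3 was itself below background, so neither value is a bound on the difference.

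Rps18, which contacts the large subunit from the head of the small one, and Rpl22, an RNA-binding protein of the large subunit, were each raised in a single pool. Rps18 read at 6.17, 10.61, 7.06 and 5.84 in high fat diet pools, against 6.82, 6.24, 5.75 and 6.66 in control diet pools (probe set 6854988). Rpl22 read at 6.54, 10.17, 5.03 and 5.00 in high fat diet pools, against 6.73, 5.98, 6.31 and 6.81 in control diet pools (probe set 6919017). In both genes high fat diet replicate 2 stood apart and the other 7 pools lay near or below background. The difference of Rps18 was +1.05 (SE 1.00, limma adjusted p = 0.46) and -0.0078 without that pool, and that of Rpl22 was +0.23 (SE 1.09, limma adjusted p = 0.89) and -0.93 without it. Without high fat diet replicate 3 the Rpl22 difference was +0.78.

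High and low pools were not the same from gene to gene. High fat diet replicate 3 was the highest of the 8 arrays for 5 genes (Rpl35a, Rplp0, Rps3, Rps15 and Rps24) and the lowest for 5 others (Rpl4, Rpl23, Rps9, Rps27l and Rpsa). Replicate 2 of the high fat diet was the highest for Rpl22, Rps18 and Rpsa and the lowest for Rps15. Control diet replicate 3 was the highest for 0 genes and the lowest for 4, and control diet replicate 1 was the highest for 0 and the lowest for 3. The median log2 signal over the 17 genes was 6.91, 9.40, 7.06 and 6.74 in high fat diet pools 1 to 4, against 7.66, 7.86, 6.31 and 6.81 in control diet pools 1 to 4. Replicate 2 of the high fat diet stood above the rest in this median, and the groups overlapped. The median of the 6 genes bright on every array ran from 12.20 to 12.99 in high fat diet pools and from 12.47 to 13.10 in control diet pools.

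**Figure D3:**
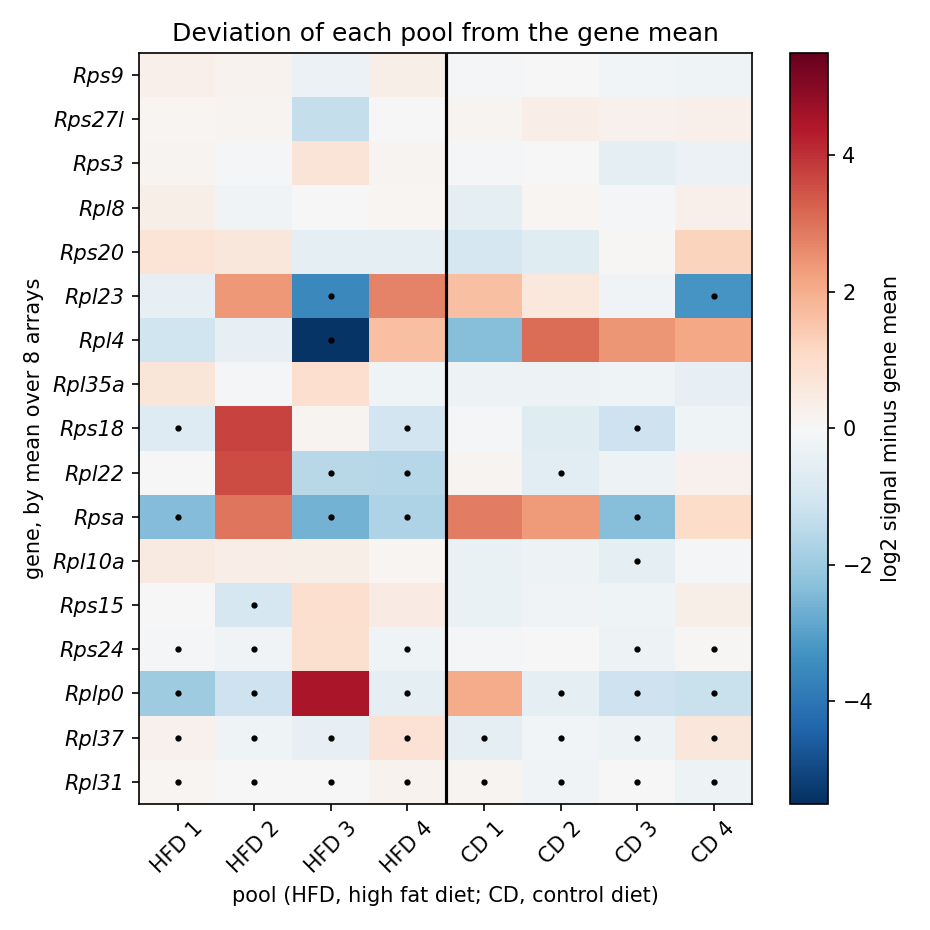
Log2 signal of each gene (rows) in each pool (columns, high fat diet left and control diet right) minus the mean of the gene over 8 arrays, in log2 units, with a dot where the pool lay at or below the receptors' 95th percentile of its array. High fat diet replicate 3 holds both the lowest Rpl4 (3.66) and the highest Rplp0 (10.13), and no pool is high or low throughout.

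The remaining genes read near or below background. Rpl10a, of the mobile L1 stalk where spent transfer RNA leaves, read at 6.91, 6.77, 6.73 and 6.50 in high fat diet pools, against 6.06, 6.12, 5.89 and 6.36 in control diet pools (probe set 6849543). It was the 1 gene whose high fat diet pools all lay above the control diet pools, which 25.4% of all tested probe sets also showed. That share moved with the scaling, and was 3.53% with cyclic loess, 9.29% with median centring and 11.3% after quantile normalization. The difference was +0.62 (SE 0.13, 95% interval +0.32 to +0.92, limma adjusted p = 0.115), and +0.40 relative to the median of all tested probe sets. It was +0.33 with cyclic loess, +0.46 with median centring and +0.47 after quantile normalization (limma adjusted p = 0.52, 0.27 and 0.27). Rpl10a lay above background on 7 of 8 arrays and above the receptors' 99th percentile on none, so it was measured close to the background, which was itself higher on high fat diet arrays.

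Rps15, of the head of the small subunit near the decoding site, read at 6.32, 5.39, 7.21 and 6.74 in high fat diet pools, against 5.95, 6.09, 6.05 and 6.60 in control diet pools (probe set 6777287). Rps24, another gene mutated in human Diamond-Blackfan anaemia, read at 5.98, 5.89, 6.94 and 5.83 in high fat diet pools, against 5.98, 6.04, 5.81 and 6.13 in control diet pools (probe set 6813317). Both groups overlapped in both genes, high fat diet replicate 3 was the highest pool in each, and the differences were +0.24 and +0.17, with limma adjusted p of 0.65 and 0.63. Without high fat diet replicate 3 they were -0.024 and -0.091. Rpl31, which lies beside the exit of the tunnel, and Rpl37, another protein of the large subunit, lay below background on all 8 arrays. Rpl31 ranged from 3.93 to 4.13 in high fat diet pools and from 3.67 to 4.12 in control diet pools (probe set 6963012), and Rpl37 from 4.41 to 5.64 and from 4.32 to 5.49 in the same order (probe set 6828417). Brightness depends on the probes, so these signals give neither an amount nor an upper limit for the transcripts. No change is read from these signals.

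Between the diets, 0 of the 17 genes passed the threshold of a limma adjusted p under 0.05. Over all 16015 tested probe sets this was 0% in the higher direction and 0.00624% (1 probe set, which was not a member) in the lower direction. At an unadjusted limma p under 0.05, 2 members read higher, Rpl10a and Rps3, against 30.1% of tested probe sets. In the lower direction it was 0 members against 1.79%. The log2 change was below 0 for 3 of 17 genes, Rpl4, Rpsa and Rps27l, against 21.3% of tested probe sets. The median change of the 17 genes was +0.23, beside +0.22 for all tested probe sets. The medians of members and of all tested probe sets were +0.071 and +0.059 with median centring, +0.11 and +0.085 with quantile normalization, +0.17 and -0.00086 with cyclic loess, and +0.34 and +0.18 with array weights. The mean over the genes was 8.47 ± 0.45 (SD, n = 4) in high fat diet pools and 8.46 ± 0.19 (SD, n = 4) in control diet pools. With the subunits apart, the median change was +0.23 over 9 large subunit genes and +0.20 over 8 small subunit genes. For the 6 genes whose pools swung most, the 95% intervals of the change were between 4.63 and 7.96 log2 units wide, and all 6 included 0.

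**Figure D4:**
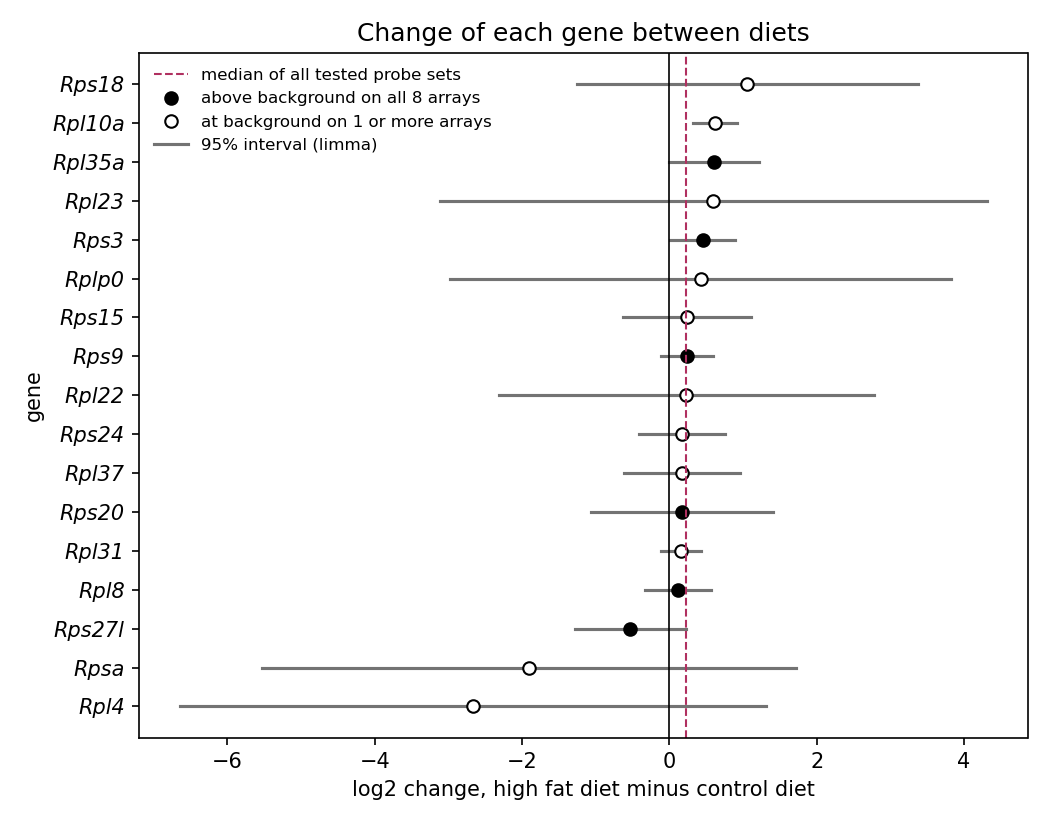
Log2 change of each gene, high fat diet minus control diet (horizontal axis), with the 95% interval from limma, filled for genes above background on all 8 arrays and open for the others. The dashed line is the median of all tested probe sets, +0.22. The interval of Rpl10a runs from +0.32 to +0.92 and that of Rpl4 from -6.65 to +1.31.

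The 32 probe sets that pair a ribosomal protein symbol with other symbols were read without naming a gene. In 16 of them every symbol was that of a ribosomal protein, a pseudogene or an unnamed gene model. Of these 16, 5 lay above background on all 8 arrays, 9 on some arrays and 2 on none. Signals ran over more than 4 log2 units in 9 of the 32 and in 8 of the 16, against 4.93% of all tested probe sets. The median SD between pools of a diet was 0.31 over the 32 and 1.28 over the 16, and 8 of the 9 wide ranges were in the 16. Of the 32, 0 passed the limma threshold, 7 were higher and 1 lower at an unadjusted p under 0.05, 8 had a change below 0 and the median change was +0.23. Of the 16, 1 was higher and 0 lower at that unadjusted p, 4 had a change below 0 and the median change was +0.43. Over all tested probe sets the shares were 30.1% higher, 1.79% lower and 21.3% below 0.

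Other genes of ribosome production and translation were read from lists. Their counts stand beside 30.1% higher and 1.79% lower at an unadjusted limma p under 0.05, and 21.3% below 0, over all tested probe sets. Of 48 measured ribosome biogenesis genes, 0 passed the limma threshold in either direction (5 higher and 3 lower at an unadjusted p under 0.05), 24 had a change below 0, and the median was +0.04. The members of this list with the smallest limma p were Wdr36, a nucleolar factor for small subunit assembly, and Emg1, a methyltransferase of ribosomal RNA. Wdr36 read at 6.19 ± 0.44 in high fat diet pools and 8.13 ± 0.49 in control diet pools (SD, n = 4 each, limma adjusted p = 0.115). It lay above background on 2 of 4 high fat diet arrays and on 4 of 4 control diet arrays. Emg1 read at 8.85 ± 0.30 and 7.92 ± 0.31 in the same order (limma adjusted p = 0.115). Of 11 elongation, termination and related genes, 0 passed (2 higher and 0 lower at an unadjusted limma p under 0.05), 4 were below 0, and the median was +0.05. Those with the smallest limma p were Eef2k, the kinase of elongation factor 2, which lay below background on all 8 arrays, and Btf3, of the complex that meets new chains at the tunnel exit. Btf3 read at 10.16 ± 0.50 in high fat diet pools and 9.50 ± 0.36 in control diet pools (SD, n = 4 each, limma adjusted p = 0.15).

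The same shares over all tested probe sets, 30.1% higher, 1.79% lower and 21.3% below 0, apply to the next lists. Of 18 genes listed for control of TOP transcripts or mTORC1, with Larp7, Myc, Mycn and Max counted among them, 0 passed (1 higher and 1 lower at an unadjusted limma p under 0.05), 5 were below 0 and the median was +0.09. Larp1, which binds the TOP start, read at 8.18 ± 0.89 in high fat diet pools and 8.05 ± 1.02 in control diet pools (SD, n = 4 each). Mtor, the kinase, read at 6.17 ± 0.08 and 6.12 ± 0.08 in the same order, at the background, and Rps6kb1 and Eif4ebp1 were not analysed here. Tial1, an RNA-binding protein that represses TOP transcripts in starved human cells, differed by -1.90 (SE 0.68, limma adjusted p = 0.13) and Tsc1, an inhibitor of mTORC1, by +0.28 with all 8 arrays below background. Of 11 genes listed for protein import and escort, with Mdm2 counted among them, 0 passed (0 higher and 1 lower at an unadjusted limma p under 0.05) and 6 were below 0, with a median of -0.22. Bccip, a nuclear escort of Rpl23 as known from human and yeast cells, was among the latter at 8.15 ± 1.61 in high fat diet pools and 10.65 ± 1.36 in control diet pools (SD, n = 4 each, limma adjusted p = 0.13). Grwd1, an escort of Rpl3 as known from human and yeast cells, differed by +0.37 (limma adjusted p = 0.20).

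Set beside the cytosolic genes, 68 genes with a mitochondrial ribosomal protein symbol (Mrpl or Mrps) had a median change of +0.08, with 32 below 0. The 37 genes whose symbols begin with Eif, most of them initiation factors, had a median of -0.34, with 26 (70.3%) below 0. Over all tested probe sets 21.3% were below 0. In both lists 0 genes passed the limma threshold. At an unadjusted p under 0.05 the mitochondrial list had 4 higher and 1 lower, and the Eif list 2 higher and 5 lower, against 30.1% and 1.79% of all tested probe sets. Genes of the mitochondrial list also varied between pools, with 17 of 68 ranging over more than 4 log2 units, against 2 of 37 of the Eif genes and 4.93% of all tested probe sets. In the mitochondrial list Mrpl38 had the smallest limma p and lay below background on all 8 arrays. Mrps36, in the list by its symbol alone, read at 10.38 ± 0.48 in high fat diet pools and 9.45 ± 0.13 in control diet pools (SD, n = 4 each, limma adjusted p = 0.115). Of the mitochondrial list 44 of 68 lay above background on all 8 arrays, and of the Eif list 21 of 37. Whether these lists differ from the 17 genes was not tested.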

How the data were processed

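The authors deposited log2 values, 1 column per array. RMA and Partek appear in the submitters' processing notes, with no version. RMA removes background, scales arrays to each other and combines the probes of a set, yet array medians still differed between diets. A genome build is not given in the sources used.

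The table has 23332 probe sets in 8 columns named by sample, and 0 columns belong to other samples. The 16015 probe sets with a symbol in the platform annotation were fitted with limma 3.58.1 in R 4.3.3 (lmFit, eBayes, two-sided, Benjamini-Hochberg adjustment over all of them, threshold 0.05, 4 arrays against 4, no covariate). No filter on dim probe sets was used. The number of arrays limits the precision. No gene set was tested as a whole. The genes examined and the lists were chosen with earlier results of these data known. For lists, symbols were updated by gene ID through RefSeq (14941 of 14996 matched), and the probe set with the highest mean was kept per gene. All 17 members are named. From each translation list the genes described singly are up to 2 with the smallest limma p and Mtor and Larp1. Larp7, Myc, Mycn, Max and Mdm2 are named as list members only, and Rps6kb1 and Eif4ebp1 as not analysed. Equal replicate numbers did not pair the pools: their deviations from the group means correlated at -0.02 to +0.08.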

Additional observations from a re-analysis of the deposited data

Results flagged for a closer look

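Dixon's criterion was applied to 36 groups of 4 arrays (17 genes and their median, in each diet). In 4 of the 36 groups, 1 array stood far from the other 3. For independent groups of normally distributed values this happens in about 1 of 20. Groups of the same diet share the same 4 arrays, so they are not independent. The share of all tested probe sets that meet this criterion was not computed. No excess over chance is therefore read from the count. Rps24 read at 6.94 in high fat diet replicate 3, the array that stands apart over all probe sets. Rps27l read at 11.60 in the same array. Rpsa read at 9.40 in high fat diet replicate 2. The median over the 17 genes was also 9.40 there, because Rpsa was itself the median gene on that array. The other 3 high fat diet arrays had medians between 6.74 and 7.06.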

How the results depend on the processing

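The count of members past the adjusted threshold was 0 in every fit run, including with the replicate block (0), and the smallest limma adjusted p of a member was 0.0743, that of Rpl10a with array weights (0.0743 to 0.52 for Rpl10a over the settings run). At an unadjusted p it was 2. Over all tested probe sets the calls numbered 1 in the fit reported and between 0 and 3 elsewhere, and the probe sets at an unadjusted p under 0.05 split into 4826 higher and 286 lower, against 1872 and 571 with median centring, 2153 and 409 with quantile normalization and 678 and 839 with cyclic loess. With an array left out, the members' median change ran from +0.17 to +0.29. The count of members below 0 ran from 3 to 7 (5 without control diet replicate 1, 7, 6 and 5 without high fat diet replicates 2, 3 and 4). Over all tested probe sets the share below 0 in these fits ran from 20.6% to 23.0%. Groups apart ran from 1 to 2 members in either direction (2 higher without control diet replicate 3 or high fat diet replicate 2, 3 or 4, and 2 lower without control diet replicate 1). The shares of all tested probe sets with groups apart ran from 26.2% to 35.9% higher and from 1.2% to 1.79% lower. Members above background on all arrays ran from 6 to 7. Chosen after seeing the data, the median was +0.20 over the members above background on all 8 arrays and +0.24 over those above it in the mean. Cyclic loess gave 7 members below 0, against 50.2% of all tested probe sets in that setting, and 0 with groups apart in the lower direction, against 3.33%. Quantile normalization gave 2 with groups apart in the higher direction, against 11.3%. The sign turned with cyclic loess for Rpl22 (-0.057), Rpl37 (-0.047), Rps15 (-0.046) and Rps24 (-0.11), with median centring for Rpl8 (-0.045) and with array weights for Rplp0 (-0.68). With an array left out, changes crossed 0 for Rpl22 (-0.93 to +0.79), Rpl23 (-0.38 to +1.87), Rpl37 (-0.069 to +0.41), Rpl8 (-0.048 to +0.23), Rplp0 (-1.002 to +1.17), Rps15 (-0.024 to +0.58), Rps18 (-0.0078 to +1.58), Rps20 (-0.12 to +0.60) and Rps24 (-0.091 to +0.28). The cause was not tested. The other 8 genes kept their sign in all settings run. The planned comparison of paralogs was not run, since no pair had both genes measured, and averaging probe sets of a gene changed nothing, since each had 1. Low signal over background limits Rpl31, Rpl37, Rps24 and Rplp0 most.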
